A study of Mus musculus with 4 samples.

Results

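The CCR4-NOT complex is the main deadenylase of animal cells, and the mRNAs of its 10 core subunits were followed in mouse embryonic stem cells (ESCs) in which one of them, Cnot1, was silenced. The members are the rows of the count table named Cnot1, Cnot2, Cnot3, Cnot6, Cnot6l, Cnot7, Cnot8, Cnot9, Cnot10 and Cnot11, 10 of the 50559 genes listed. RNA-seq was performed on E14 ESCs, a cultured pluripotent line, grown on gelatin with serum replacement and leukemia inhibitory factor. The culture section of the paper describes its ESCs as carrying a tdTomato transgene under the promoter of the MERVL retrotransposon, and does not name E14. Cells were transfected with siRNA against Cnot1 (siCnot1, 2 libraries) or with a non-targeting siRNA (siNT, 2 libraries). Each was used at 150 nM, and cells were harvested 48 h after the first transfection. The paper lists 2 siRNAs against Cnot1 and does not state which was used for these libraries. The libraries analysed hold no untransfected group and 1 siRNA condition against Cnot1. An effect of that siRNA on other transcripts and the loss of Cnot1 therefore cannot be told apart. The replicates are described as biological, all from 1 cell line.

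Shortening of the poly(A) tail is usually the first and slowest step in the decay of an mRNA. CNOT1 is the long scaffold on which the other subunits assemble. CNOT2 and CNOT3 form the NOT module at its C-terminal end, CNOT9 binds its centre and docks proteins that bring in target mRNAs, and CNOT10 with CNOT11 bind its N-terminal end. The catalytic part holds one DEDD-type nuclease, CNOT7 or CNOT8, and one EEP-type nuclease, CNOT6 or CNOT6L, so each nuclease position is filled by one of a pair of paralogs. All values below are mRNA values, and protein levels and assembly of the complex were not measured. Libraries were made from poly(A)+ RNA, and each level is relative to the other genes of its library. Total mRNA per cell and tail length were not measured here. Changes in these cannot be told apart from a change in the amount of a given mRNA.

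How alike the paralogs are decides how well reads tell them apart, which bears on every value given for them. Over their coding sequences, Cnot7 and Cnot8 were identical at 616 of 852 aligned bases (72.3%), and Cnot6 and Cnot6l at 1213 of 1648 (73.6%), in GENCODE M21 transcripts. In each pair the longest run of identical bases was 20. These runs are shown in capitals with 5 flanking bases on each side, 5′ to 3′ on the coding strand.
Cnot7: ggctaTCATTTCACAGTGGTTATGActttg
Cnot8: ggcttTCATTTCACAGTGGTTATGAttttg
Cnot6: caaatCATAAAGACTTCAAGGAACTgaggt
Cnot6l: acaacCATAAAGACTTCAAGGAACTaaggt
The Cnot7 window lies at bases 458 to 487 of its coding sequence (GRCm38 chr8:40499426-40500767, minus strand) and the Cnot8 window at the same bases of its own (GRCm38 chr11:58113198-58113963, plus strand). Both cross an exon boundary, so the intervals include an intron. The Cnot6 window (GRCm38 chr11:49677437-49677466, minus strand) and the Cnot6l window (GRCm38 chr5:96080070-96080099, minus strand) each lie within coding exon sequence, in exon 11 of 12 of the transcript used. No 100-base window of a Cnot6, Cnot6l or Cnot7 transcript occurred in a transcript of another gene. Such windows were found for 3 members and made up 7.48% of Cnot1 (shared with Gm6158), 9.99% of Cnot3 (Gm9207) and 5.05% of Cnot8 (Gm18860). The counts on Gm6158 and Gm9207 were 66 at most, and those on Gm18860 lay between 148 and 214.

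Depth was alike in the 4 libraries, with 32135824 to 32557440 counts on genes. Of the genes listed, 18144 had enough counts to be tested, all 10 members among them. Counts were scaled with the TMM method of edgeR, which sets libraries to the bulk of genes, and are given as normalized CPM (counts scaled to library size). Groups were compared with edgeR's quasi-likelihood test, and p-values were adjusted by Benjamini-Hochberg over all 18144 genes; an adjusted p under 0.05 was taken as a call. By this rule 29.7% of all tested genes were called, 15.0% higher and 14.7% lower in siCnot1. Higher genes made up 50.5% of the calls with TMM and 71.9% when libraries were scaled by their totals alone, which moved the median log2 fold change of all tested genes from 0.0084 to 0.12. The 8 ESC markers examined had mean levels of 212 to 1167 normalized CPM. Their summed level was 6569 to 6790 in siNT and 5532 to 5873 in siCnot1, with 6 of the 8 called lower. Of 6 fibroblast markers 4 were under 1 CPM and Col3a1 had no count in any library, with sums of 8.94 to 12.2 in siNT and 12.8 to 13.3 in siCnot1 and 1 gene called higher. Sums were 6.96 to 9.06 and 12.2 to 13.2 for primitive endoderm markers (1 of 5 higher), 28.8 to 29.2 and 17.7 to 20.3 for primed or early neural markers (2 of 4 lower), and 20.99 to 22.9 and 21.2 to 24.0 for trophectoderm markers (0 of 4 called), siNT first. In bulk RNA, fewer cells of a type and less RNA per cell cannot be told apart, and the part of these markers in the results on subunits was not tested.

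Cnot1, the siRNA target and the check of the labels, was reduced to 19.8% of its control level. Cnot1 (GRCm39 chr8:96445559-96534741, minus strand, a build inferred from the listed positions) had normalized CPM of 913 and 986 with siNT, compared with 185 and 192 with siCnot1. The groups stood far apart relative to the difference between replicates. The 95% interval of the level in siCnot1 was 18.2% to 21.6% of that in siNT, and the log2 fold change was -2.33 ± 0.0587 (SE; edgeR adjusted p = 2.37e-18). A total of 79 bases of its exons overlap Setd6 and 781 bases overlap 4930513N10Rik, both on the opposite strand. The kit kept strand, but the strand setting used in counting is not given in the sources used here. Reads of 4930513N10Rik were few, between 194 and 196 counts per library.

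**Figure D1:**
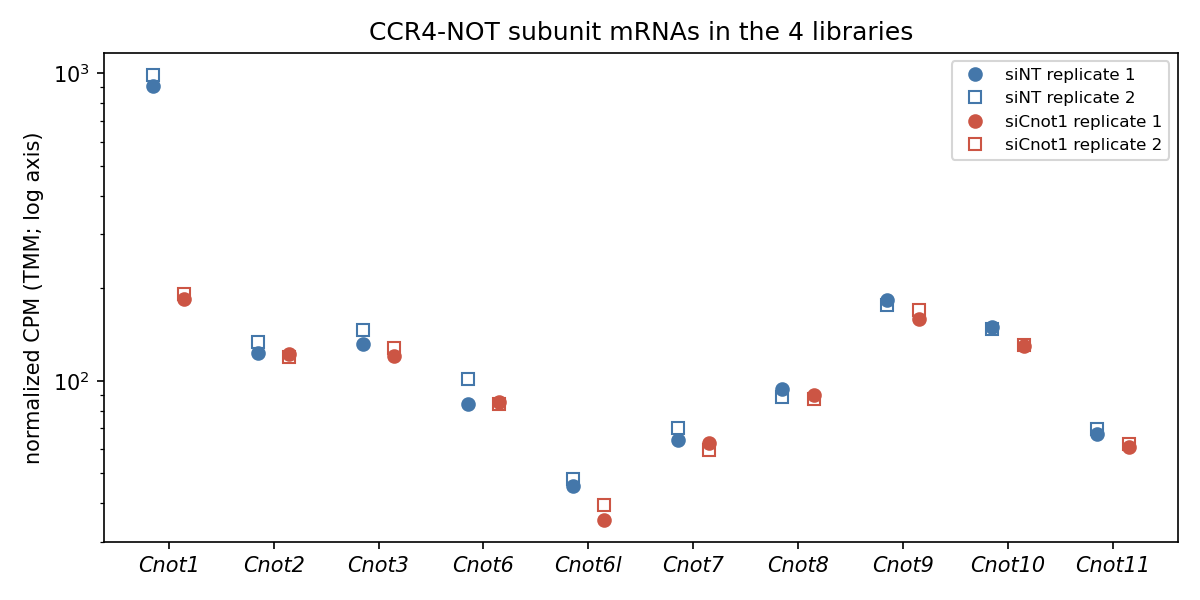
Normalized CPM (log axis) of the 10 CCR4-NOT subunit mRNAs, with 1 point per library, siNT in blue and siCnot1 in red. Cnot1 drops from 913 and 986 to 185 and 192, while the siCnot1 points of the other 9 lie close to their siNT points.

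The other 9 subunit mRNAs had fitted levels between 79.8% and 97.3% of control, and none was called higher. With Cnot1, 3 of the 10 members were called, all lower, against 29.7% of all tested genes. Without the target, 2 of 9 (22.2%) were called, Cnot6l and Cnot10, a share near that background. The study's methods set a fold threshold in DESeq2 (log2 fold change of 1 or more in either direction, with unadjusted p up to 0.05). Here that threshold was applied to the fold changes and unadjusted p-values of the edgeR fit with TMM. Cnot1 was the only member past it, against 7.98% of all tested genes (6.18% higher and 1.80% lower). The log2 fold changes of the 9 lay between -0.33 and -0.039, with a median of -0.14 beside 0.0084 for all tested genes. Among the scalings used in the fits, the sign changed for Cnot2 and Cnot8, which were at 0.020 and 0.068 with library totals. Levels per length, given below without TMM scaling, changed direction for more of the 9. Relative to the median of all tested genes, the 9 lay between -0.33 and -0.048 with a median of -0.15, a value that scaling cannot alter because it shifts all genes alike. The siCnot1 libraries were both below both siNT libraries for 7 of the 9 with TMM, where 31.2% of all tested genes showed the same and 32.7% the opposite (63.9% without overlap in all), and for 3 of the 9 with library totals (Cnot6l, Cnot10 and Cnot11), where 21% did.

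**Figure D2:**
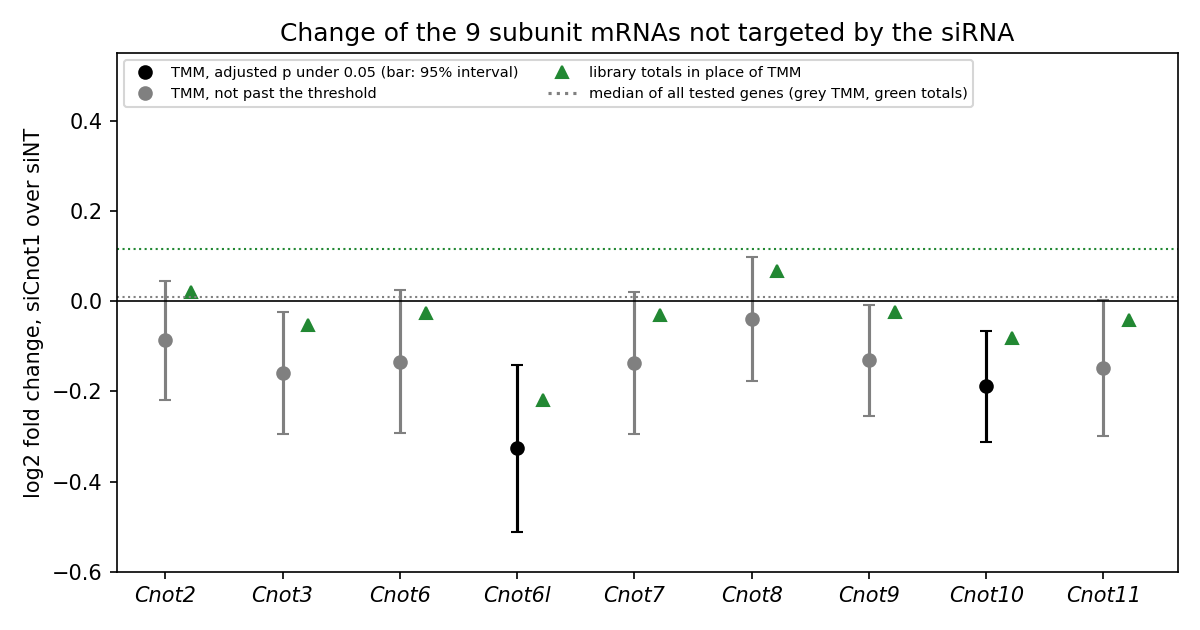
Log2 fold change (siCnot1 over siNT) of the 9 subunit mRNAs other than Cnot1, as circles with 95% intervals under TMM, and as triangles with library totals in place of TMM; dotted lines give the median of all tested genes under each scaling. Cnot6l and Cnot10 (black) have an adjusted p under 0.05 with TMM; library totals shift genes and median alike, so positions relative to the dotted lines are the same for both, while Cnot2 and Cnot8 move above 0.

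In the NOT module, Cnot2 and Cnot3 did not pass the test. Cnot2 (GRCm39 chr10:116321065-116418891, minus strand), which pairs with CNOT3 in the module, had 123 and 134 normalized CPM in siNT and 122 and 120 in siCnot1. The lower siNT replicate and the higher siCnot1 replicate were nearly level. It differed by -0.087 ± 0.0633 on the log2 scale (SE; edgeR adjusted p = 0.332), which leaves levels of 86.0% to 103% of control within the 95% interval. Cnot3 (GRCm39 chr7:3646717-3664108, plus strand), whose protein binds CNOT2 and the CNOT1 C-terminus, had 131 and 146 in siNT and 121 and 128 in siCnot1. Both siCnot1 values lay below both siNT values, by less than the siNT replicates differed from each other when the nearest libraries are compared. The Cnot3 difference was -0.16 ± 0.065 on the log2 scale (SE; edgeR adjusted p = 0.0683; 95% interval 81.6% to 98.3% of control). The unadjusted p from edgeR was 0.0222, so Cnot3 missed the threshold only after the adjustment over all genes. Of the listed Cnot3 exons, 16.4% overlap Gm15927 on the opposite strand, a gene with 141 to 167 counts.

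Among the subunits that bind the centre and the N-terminal part of CNOT1, Cnot10 was called lower and Cnot9 and Cnot11 were not. Cnot10 (GRCm39 chr9:114414942-114469289, minus strand) had 149 and 148 normalized CPM in siNT and 130 and 131 in siCnot1. Replicates were within a few CPM of each other and the groups did not overlap. The siCnot1 level was 87.8% of control (95% interval 80.6% to 95.6%), or -0.19 ± 0.0594 on the log2 scale (SE; edgeR adjusted p = 0.0186). This call was lost with library totals (log2 fold change -0.081, adjusted p = 0.315 from edgeR), without a filter on low counts (adjusted p = 0.0559 from edgeR), and in all 4 fits that left out 1 library, where the log2 fold change stayed between -0.20 and -0.18. Of the listed Cnot10 exons, 11.3% overlap LOC118567681 on the opposite strand, a gene with 28 to 44 counts. Cnot11 (GRCm39 chr1:39574782-39585962, plus strand), the partner of CNOT10, had 67.1 and 69.5 in siNT and 61.1 and 62.2 in siCnot1. The groups did not overlap here either, but the log2 fold change of -0.15 (standard error 0.0731) had an adjusted p of 0.137 in edgeR. Cnot9 (GRCm39 chr1:74545192-74570001, plus strand), the subunit that holds tryptophan-containing peptides of recruiting proteins such as GW182 family members, had 183 and 176 in siNT and 159 and 169 in siCnot1. The Cnot9 difference was -0.13 ± 0.0596 on the log2 scale (SE; edgeR adjusted p = 0.103), and the 95% interval held levels of 83.8% to 99.5% of control.

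In the catalytic part, Cnot6l was called lower and Cnot6, Cnot7 and Cnot8 were not. Cnot6l (GRCm39 chr5:96218192-96312044, minus strand) encodes an EEP nuclease and had 45.6 and 48.05 normalized CPM in siNT and 35.3 and 39.3 in siCnot1. The groups did not overlap, and the gap between them exceeded the difference within either. The level in siCnot1 was 79.8% of control (95% interval 70.1% to 90.7%), or -0.33 ± 0.0896 on the log2 scale (SE; edgeR adjusted p = 0.00756). With library totals the log2 fold change was -0.22 (adjusted p = 0.0657 from edgeR), and without a filter on low counts the adjusted p was 0.065. With 1 library left out, Cnot6l was called in 1 of 4 fits, the one without siCnot1 replicate 2, and its log2 fold change lay between -0.41 and -0.25. Cnot6 (GRCm39 chr11:49562324-49604227, minus strand), its paralog, had 84.2 and 102 in siNT and 85.4 and 84.0 in siCnot1. The siNT replicates differed more than the groups did, and 1 of them fell between the siCnot1 values. The Cnot6 difference of -0.13 ± 0.0766 on the log2 scale (SE; edgeR adjusted p = 0.201) rested on siNT replicate 2, without which it was 0.0072.

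The DEDD nucleases were not called. Cnot7 (GRCm39 chr8:40945579-40968888, minus strand) had 64.4 and 70.1 normalized CPM in siNT and 62.7 and 59.5 in siCnot1. The difference was -0.14 ± 0.076 on the log2 scale (SE; edgeR adjusted p = 0.187; 95% interval 81.5% to 101% of control). Its exons share 600 bases with Zdhhc2 and 215 bases with Vps37a on the opposite strand. Vps37a was itself lower (log2 fold change -0.27, edgeR adjusted p = 0.0304), whereas Zdhhc2 was at 0.30 and not called (edgeR adjusted p = 0.115). Cnot8 (GRCm39 chr11:57983620-58009423, plus strand) had 93.8 and 88.4 in siNT beside 89.7 and 87.6 in siCnot1. The groups overlapped, with a difference of -0.039 ± 0.0662 on the log2 scale (SE; edgeR adjusted p = 0.71; 95% interval 88.5% to 107% of control).

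To compare the subunits with each other, counts were divided by the exon length listed for each gene and expressed as TPM (transcript share scaled to library size). TPM carries no TMM factor, so its differences between groups can have another direction than the fold changes above. On this scale the means of Cnot2, Cnot6, Cnot7, Cnot8, Cnot9 and Cnot11 were higher in siCnot1. Those of Cnot1, Cnot3, Cnot6l and Cnot10 were lower. In siNT, Cnot1 was the most abundant at 241 ± 16.6 TPM (SD, n = 2), followed by Cnot9 at 133 ± 1.86 and Cnot10 at 87.8 ± 0.456 (SD, n = 2 each). These 3 were separated from each other and from the rest in both replicates. Cnot8, Cnot2 and Cnot11 came next with means of 54.1, 53.5 and 51.1 TPM, and neighbours in this group overlapped. Cnot6, Cnot3 and Cnot7 followed at 36.0, 32.6 and 32.3 TPM, again with overlapping replicates. Cnot6l was the lowest at 11.8 ± 0.61 TPM (SD, n = 2), 4.9% of the Cnot1 level. In siCnot1, Cnot1 had 53.5 ± 0.768 TPM (SD, n = 2) and ranked 5 of 10, between Cnot2 at 56.2 and Cnot11 at 51.5. The Cnot9 level was 55.3% of the Cnot1 level in siNT and 254% of it in siCnot1 with listed lengths.

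**Figure D3:**
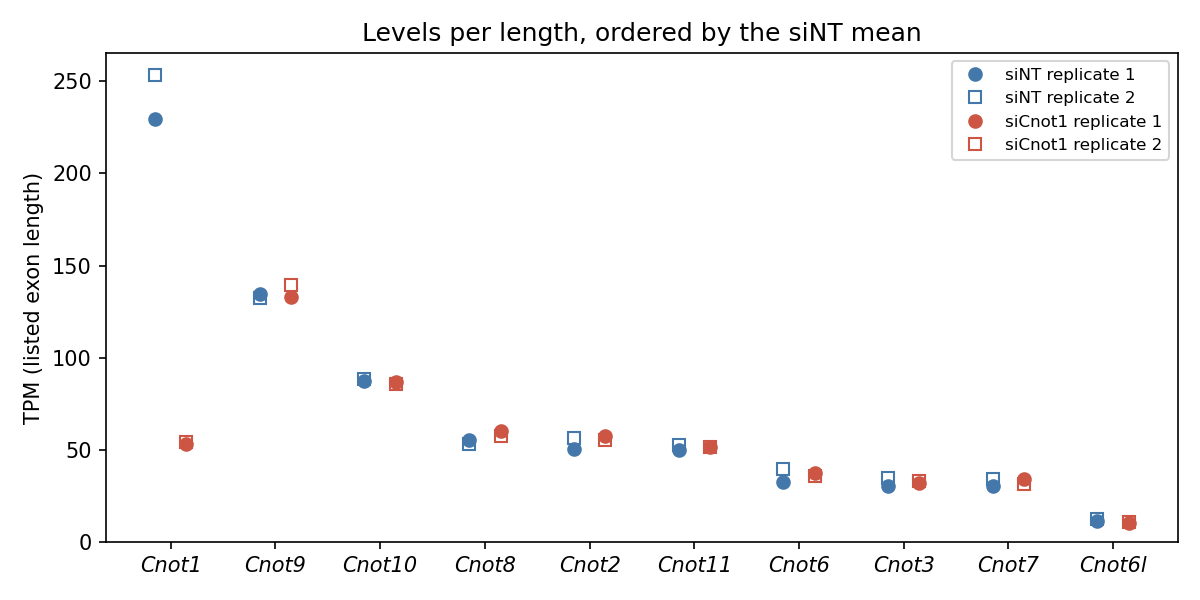
TPM (listed exon length, no TMM factor) of the 10 subunit mRNAs in each library, ordered by the siNT mean, siNT in blue and siCnot1 in red. Cnot1 is the highest in siNT at 230 and 253 TPM and lies among Cnot8, Cnot2 and Cnot11 in siCnot1 at 52.9 and 54.0 TPM.

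The order depends on the length used, because the listed length is the union of all annotated exons. It is 10402 bases for Cnot3, whereas the GENCODE M21 transcript with its longest coding sequence has 2822 bases. With GENCODE transcript lengths, chosen after the data were seen, Cnot3 ranked 4 in siNT at 43.4% of the Cnot1 level, in place of 13.5% with listed lengths. Cnot1 remained first and Cnot6l last in siNT with these lengths. With coding length alone, Cnot9 stood above Cnot1 in siNT, at 150% of its level. In siCnot1, Cnot9 was at 224% of the Cnot1 level with transcript length and 693% with coding length, and Cnot1 ranked 6 and 9 of 10. Cnot6l was last under each of the 3 lengths in both groups. Ratios of 1 gene between groups do not depend on its length.

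The balance within the paralog pairs was compared as a log2 ratio of levels per length in each library, a value that does not depend on scaling between libraries. The Cnot7 to Cnot8 ratio was -0.85 and -0.64 with siNT, beside -0.82 and -0.86 with siCnot1. The siNT replicates enclosed one siCnot1 value, and the groups did not separate. The difference was -0.098 (two-sided exact permutation test over the 4 libraries, p = 0.667). Cnot7 held 35.7% and 39.1% of the summed TPM of the pair in siNT and 36.1% and 35.5% in siCnot1. The Cnot6 to Cnot6l ratio was 1.5 and 1.70 with siNT, beside 1.89 and 1.71 with siCnot1. Both siCnot1 values were higher, but one exceeded the nearest siNT value by only a small part of the difference between replicates. The difference was 0.20 (two-sided exact permutation test, p = 0.333, the smallest that 2 against 2 libraries allow), and the difference of the fitted log2 fold changes was 0.19 with a combined standard error of 0.118. The summed TPM of each pair are given with no test and, unlike the ratios, depend on scaling between libraries. For Cnot7 with Cnot8 they were 85.8 and 87.0 TPM in siNT and 94.0 and 89.2 in siCnot1. With TMM both genes were instead slightly lower in siCnot1 (log2 fold changes -0.14 and -0.039, neither called), so the direction of this sum depended on scaling. For Cnot6 with Cnot6l the sums were 43.7 and 52.0 in siNT against 47.3 and 47.0 in siCnot1.

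**Figure D4:**
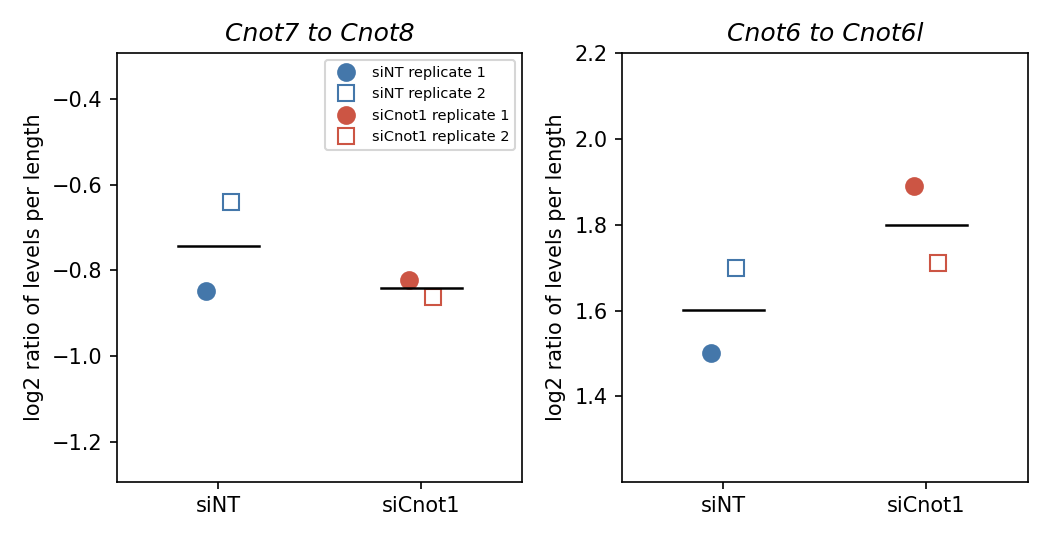
Log2 ratio of levels per length of Cnot7 to Cnot8 (left) and of Cnot6 to Cnot6l (right) in each library, with bars at the group means; both axes span the same range. The Cnot7 to Cnot8 values overlap between groups, and the Cnot6 to Cnot6l values of siCnot1 lie at 1.89 and 1.71 beside 1.5 and 1.70 in siNT.

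Other genes of the deadenylation pathway were read in the same fit. Cnot4, a ubiquitin ligase that is a loosely held subunit in mammals, had 45.0 and 49.2 normalized CPM in siNT and 46.8 and 43.4 in siCnot1 (adjusted p = 0.646 from edgeR), and its small log2 fold change of -0.062 was 0.045 with library totals. Tnks1bp1, a partner of the complex, was at a log2 fold change of 0.20 (adjusted p = 0.187 from edgeR). It passed with library totals (0.30, adjusted p = 0.0379 from edgeR). Of 9 other deadenylases and their relatives, including Pan2, Pan3 and Parn, 1 was lower and none higher. The lower one was Noct, a circadian-regulated relative of CNOT6, at 184 and 207 normalized CPM in siNT and 115 and 126 in siCnot1 (log2 fold change -0.70, adjusted p = 4.73e-08 from edgeR). Pan2, the nuclease of the other cytoplasmic tail-shortening complex, was at 0.12 (adjusted p = 0.203 from edgeR) and was called higher with library totals (0.22, adjusted p = 0.0126 from edgeR).

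Of the BTG/TOB adaptors, which bind the CNOT7 and CNOT8 nucleases, 5 of 6 were tested (Btg4 was not), and 2 were higher. Btg2 rose from 47.0 and 51.2 to 75.3 and 73.7 normalized CPM (log2 fold change 0.60, adjusted p = 2.72e-06 from edgeR). For Btg1 the values went from 35.0 and 37.0 to 49.9 and 48.1 (log2 fold change 0.44, adjusted p = 0.000409 from edgeR), and this call was lost in 1 of the 4 fits that left out a library. Of 20 proteins known to bring CCR4-NOT to mRNAs, 18 were tested (Zfp36l3 and Nanos2 were not), 2 were higher and 4 lower. This balance depended on scaling, with 4 higher and 3 lower under upper-quartile scaling and 5 higher and 3 lower with library totals, where Nanos1, Tnrc6c and Rc3h2 also passed. With 1 library left out, 0 to 1 were higher and 3 to 4 lower. Zfp36l1 and Zfp36, which bind AU-rich elements, fell to 55.3% and 53.4% of control (log2 fold changes -0.85 and -0.90, adjusted p = 4.19e-09 and 1.35e-05 from edgeR). Samd4b, which binds stem-loop elements, was also lower (-0.31, adjusted p = 0.000631 from edgeR). The remaining calls, Zfp36l2 (lower) and Bicc1 and Tnrc6a (higher), are named because their values were seen. Zfp36l2 was not called with upper-quartile scaling, with library totals, without a filter on low counts or with the DESeq2 Wald test. Bicc1 and Tnrc6a were not called without that filter. With 1 library left out, Zfp36l2 and Bicc1 were each called in 1 of 4 fits and Tnrc6a in 0. The shares called were 11.1%, 40% and 33.3% of the tested deadenylases, adaptors and recruiters, beside 22.2% of the 9 subunits and 29.7% of all genes. The median log2 fold changes of these 3 lists were -0.089, -0.077 and -0.022 and turned positive with library totals.

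**Figure D5:**
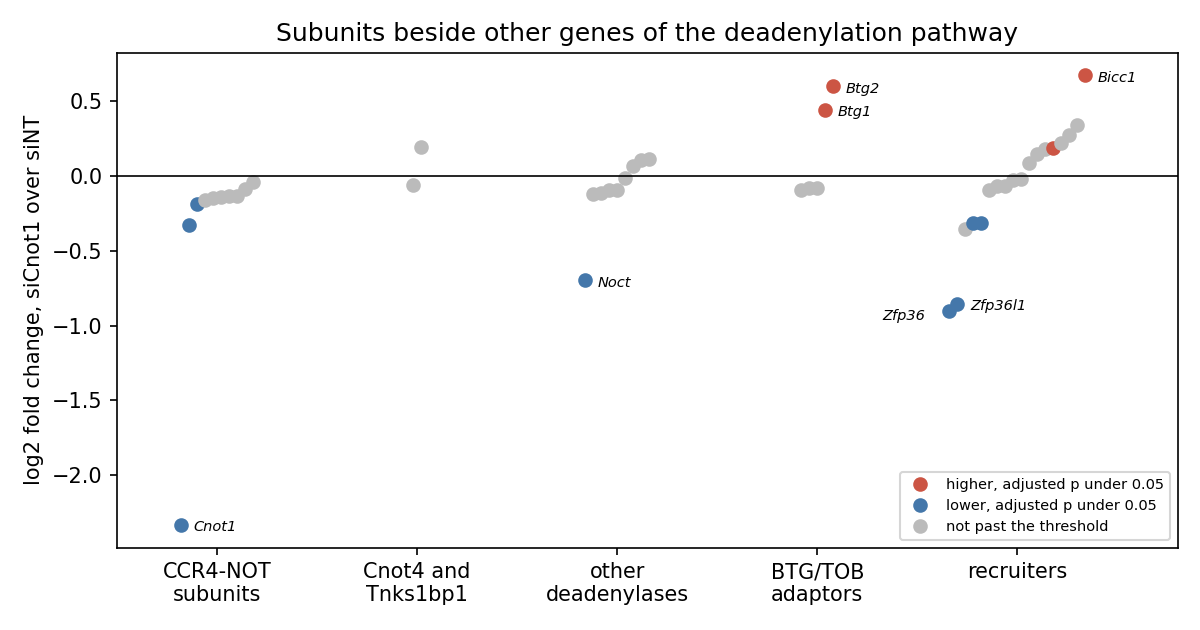
Log2 fold change (siCnot1 over siNT, TMM) of each tested gene, by list, in red or blue where the adjusted p was under 0.05 and in grey otherwise. The 9 subunits other than Cnot1 lie between -0.33 and -0.039. Genes outside that range include Bicc1 at 0.67, Btg2 at 0.60, Noct at -0.70, Zfp36l1 at -0.85 and Zfp36 at -0.90.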

How the data were processed

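RNA-seq of siNT and siCnot1 ESCs (2 libraries each) was analysed. Libraries were from poly(A)+ RNA, by a strand-keeping dUTP kit, and the authors deposited raw counts per gene with listed exon lengths. The submitters' processing notes name fastp 0.19.4, HISAT2 2.2.1, DESeq2 1.40.2 and mm10. The counting program is not given in the sources used here. Of the 10 members, 0 lay within 1000 bases of their RefSeq GRCm38 positions, and the listed positions were taken to be GRCm39, which no source used here names. GENCODE M21 (GRCm38) sequences were joined by symbol only.

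Counts were filtered with filterByExpr (minimum count 10), scaled by TMM and tested with edgeR 4.0.16 in R 4.3.3 (quasi-likelihood, Benjamini-Hochberg adjustment, condition as the only term). Standard errors were computed from the F statistic. On simulated data for siCnot1 against siNT (18144 genes, 200 changed 2-fold) 176 were recovered with 7 false calls. Recovery of smaller changes, or with more genes changed, was not tested. The 9 subunits other than Cnot1 had smaller changes, with log2 fold changes between -0.33 and -0.039. Depth gave a floor of 3 counts, 0.0921 to 0.0934 CPM, for counting error only, and all members were far above it. P-values reflect the spread between these libraries only. With 2 libraries per group, edgeR estimated the spread of each gene largely from all tested genes together (at least 21.9 degrees of freedom per gene). Standard errors and intervals rest on that shared estimate.

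Members and lists were chosen with earlier results of these data known. All 10 members and both peripheral genes are named. Of other lists, at most 3 genes with the smallest adjusted p under 0.05 are named; others were named after their values were seen. Alternatives were other scalings and filters, DESeq2 1.42.0, limma-voom 3.58.1, the replicate number as a block, and leaving out each library.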

Additional observations from a re-analysis of the deposited data

How the results depend on the processing

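Cnot1 was lower and past the threshold under all 12 alternatives. For the other 9 subunits, 94 of 108 values kept their direction and their side of the threshold, 11 lost the call (Cnot6l and Cnot10) and 3 changed sign. With library totals in place of TMM, 1 member was called lower in place of 3, all genes lower were 1563, Cnot2, Cnot8 and Cnot4 were at 0.020, 0.068 and 0.045, and the median log2 fold changes of other deadenylases, BTG/TOB adaptors, recruiters and decapping partners were 0.018, 0.030, 0.085 and 0.019. The shift of all genes by this scaling is part of its construction. Without a filter on low counts, 1 member was called lower, with 1303 genes higher and 1450 lower of 30308 tested. By the study's threshold 1 member was lower. With each library left out in turn, which leaves 1 library assumed to vary like the other group, 1 to 2 members were lower, 743 to 1439 genes were higher and 871 to 1463 lower. The Cnot7 to Cnot8 difference then lay between -0.20 and 0.0066, and the Cnot6 to Cnot6l difference stayed above 0. Cnot6 lay between -0.27 and 0.0072 and Cnot4 between -0.13 and 0.0022, both highest without siNT replicate 2. The median of BTG/TOB adaptors lay between -0.072 and 0.024, and that of recruiters between -0.038 and 0.088. The causes were not tested, apart from the fewer libraries or other genes each alternative has by construction.

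Both groups carry replicate numbers 1 and 2. Subtracting each group's mean left a correlation of 0.011 between libraries with the same number (18144 genes). This value cannot tell whether such libraries were prepared together, which the labels do not state. With the replicate block, 3 members were lower, 2524 genes were higher and 2431 lower, Cnot6l was at -0.33 (adjusted p = 0.0126 from edgeR) and Cnot10 at -0.19 (adjusted p = 0.0395 from edgeR). The members had 1184 counts or more in each library.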

Other observations

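Of 12 factors of mRNA decapping and 5′ decay, the steps that follow deadenylation, 5 were lower in siCnot1, none was higher and 7 did not pass the test. The share called was 41.7%, beside 29.7% of all tested genes called in either direction and 14.7% called lower. The count of 5 fell to 1 in each of the 4 fits that left out 1 library and without a filter on low counts, and to 3 with upper-quartile scaling or the replicate block. With library totals 1 was lower (Dcp2) and 1 higher (Lsm14b, adjusted p = 0.0473 from edgeR). Dcp2, the decapping enzyme, fell from 307 and 326 normalized CPM in siNT to 228 and 237 in siCnot1 (log2 fold change -0.45, adjusted p = 2.71e-06 from edgeR), and it was also called with library totals and in all 4 fits that left out 1 library. Patl1, a scaffold between deadenylation and decapping, was at -0.25 (adjusted p = 0.00848 from edgeR), and Dcp1a, the activator of DCP2, was also at -0.25 (adjusted p = 0.014 from edgeR). Neither was called with library totals, nor were Lsm14a and Edc3, the remaining calls, which are named because their values were seen. Ddx6, the helicase that binds CNOT1, was at 0.012 (adjusted p = 0.896 from edgeR).

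Among 7 poly(A)-binding proteins and their partners, 6 were tested (Pabpc1l was not) and 2 were lower (33.3%), beside 29.7% of all tested genes called. The count was 0 without siNT replicate 1 and without siCnot1 replicate 1, 1 without siCnot1 replicate 2 and 2 without siNT replicate 2. Paip2, which displaces PABPC1 from the tail, was at 227 and 224 normalized CPM in siNT and 187 and 193 in siCnot1 (log2 fold change -0.25, adjusted p = 0.00183 from edgeR). Pabpc4 was at -0.22 (adjusted p = 0.00482 from edgeR). With library totals neither was called (adjusted p = 0.0562 and 0.128 from edgeR), and Paip2b was called higher. Pabpc1, the main cytoplasmic poly(A)-binding protein, was at -0.077 (adjusted p = 0.3 from edgeR).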
